A study of Bos taurus with 12 samples.

Results

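The livers described here were those of the 6 control cows of a feeding study in Holstein dairy cows, sampled by needle biopsy 7 ± 2 days after calving, in week 1 of lactation. All samples labelled control were taken and no other, which gave 6 of the 12 arrays of the series, 1 array per cow. The control cows were female and received a basal total mixed ration with wheat bran at 1% of dry matter from 3 weeks before calving onwards, in place of a grape seed and grape marc extract (GSGME). The 6 cows that received GSGME were not analysed here. The control cows carry the labels Liver_control_819, Liver_control_825, Liver_control_1017, Liver_control_1031, Liver_control_1041 and Liver_control_1150, and are called cows A to F in that order. Per the study's methods the group held 5 multiparous cows and 1 primiparous cow, but the labels do not give which cow was primiparous, and therefore the part of parity in any difference between cows was not tested.

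The liver of a cow that has just calved supplies most of the glucose used for milk, largely from propionate and amino acids, and takes up the fatty acids that leave adipose tissue during the energy deficit of early lactation. These fatty acids are oxidised, turned into ketone bodies, or stored as triacylglycerol. Hepatocytes also secrete the major plasma proteins, and in the first days after calving the cow liver commonly shows an acute phase response and a fall in growth hormone receptor and IGF-1, which is known as the uncoupling of the growth hormone axis.

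The arrays carried 26773 transcripts, of which 18457 had 1 gene symbol, and these stood for 18010 genes. Values are log2 signals, so that a difference of 1 is a doubling of signal, and a gene was called expressed when its mean over the 6 cows was above 7. There were 6615 expressed genes (36.7%). The lowest of them was ASPG and the highest of those left out was ABCF2, both with a mean of 7.00, so that the limit separates nothing by itself. As a check of scale, 710 olfactory receptor genes, which are expressed in the nose and hardly elsewhere, had a median signal of 3.67, and 5 of them were above 7. Array medians lay between 6.02 and 6.17, and the correlation between arrays across transcripts lay between 0.97 and 0.98 for the 15 pairs of cows. The array of cow B had the narrowest interquartile range of signals, 2.53, against 2.67 to 2.88 in the other cows. Because each cow had 1 array, the spread between cows holds both the difference between animals and the error of measurement, so that the 2 cannot be told apart. The study's methods give RNA integrity as a mean over all samples and not for each cow, and its part in the spread was not tested.

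The label of liver was checked against cell type markers, and those of hepatocytes had the highest signals. All 12 hepatocyte markers were expressed, and their mean signal was 12.41 ± 0.05 (SD over cows, n = 6). The next highest lists were Kupffer cells, the resident macrophages (8.94 ± 0.27, 11 of 11 measured markers expressed), and sinusoidal endothelium (8.62 ± 0.11, 8 of 9). The stellate cell and fibroblast list had a mean of 7.03 ± 0.15 with 4 of 9 markers expressed. Bile duct markers (0 of 8 expressed), erythroid markers (0 of 8), skeletal muscle markers (0 of 10), T and NK cell markers (2 of 13), B and plasma cell markers (1 of 8), neutrophil markers (1 of 12) and markers of skin and adipose tissue (1 of 10) were mostly below 7. In such bulk samples, fewer cells of a type and less RNA per cell cannot be told apart.

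Secreted plasma proteins gave the highest signals of the control liver. The 20 genes with the highest means included ALB, encoding serum albumin (13.74 ± 0.06), the fibrinogen chains FGA (13.72 ± 0.07), FGB (13.42 ± 0.07) and FGG (13.42 ± 0.09), the central complement component C3 (13.54 ± 0.02), APOC3 (13.48 ± 0.24), the vitamin D-binding protein GC (13.25 ± 0.05) and transthyretin, TTR (12.98 ± 0.41). Intracellular enzymes also stood among them, namely the alcohol dehydrogenase ADH1C (13.18 ± 0.07), the peroxide-degrading enzyme CAT (13.13 ± 0.17) and the ethanol-oxidising cytochrome CYP2E1 (13.01 ± 0.23). HAVCR1, best known as a marker of injured kidney tubules, also had a signal of 13.14 ± 0.08. A signal on an array also depends on how strongly each probe set binds, and therefore the order of genes and programmes describes array signal and not the amount of transcript.

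Of 32 programmes of liver function, with 541 of 654 listed genes matched to a row with 1 symbol, plasma carrier proteins had the highest mean signal, 12.03 ± 0.16 over 15 genes. They were followed by complement made by hepatocytes (11.84 ± 0.08, 18 genes), and by coagulation and fibrinolysis (11.26 ± 0.07, 22 genes). The last 2 of these lists had the smallest SDs between cows of all 32 programmes, which shows in the plot of programmes as tight rows of points. The complement list was the steadiest of the 3 in its members, with a median member SD of 0.14 and no member with an SD of 0.5 or more. Genes with a mean above 12 had a median SD of 0.17, against 0.22 for all expressed genes. The part of such high signal in the small SDs of these lists was not tested.

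**Figure D1:**
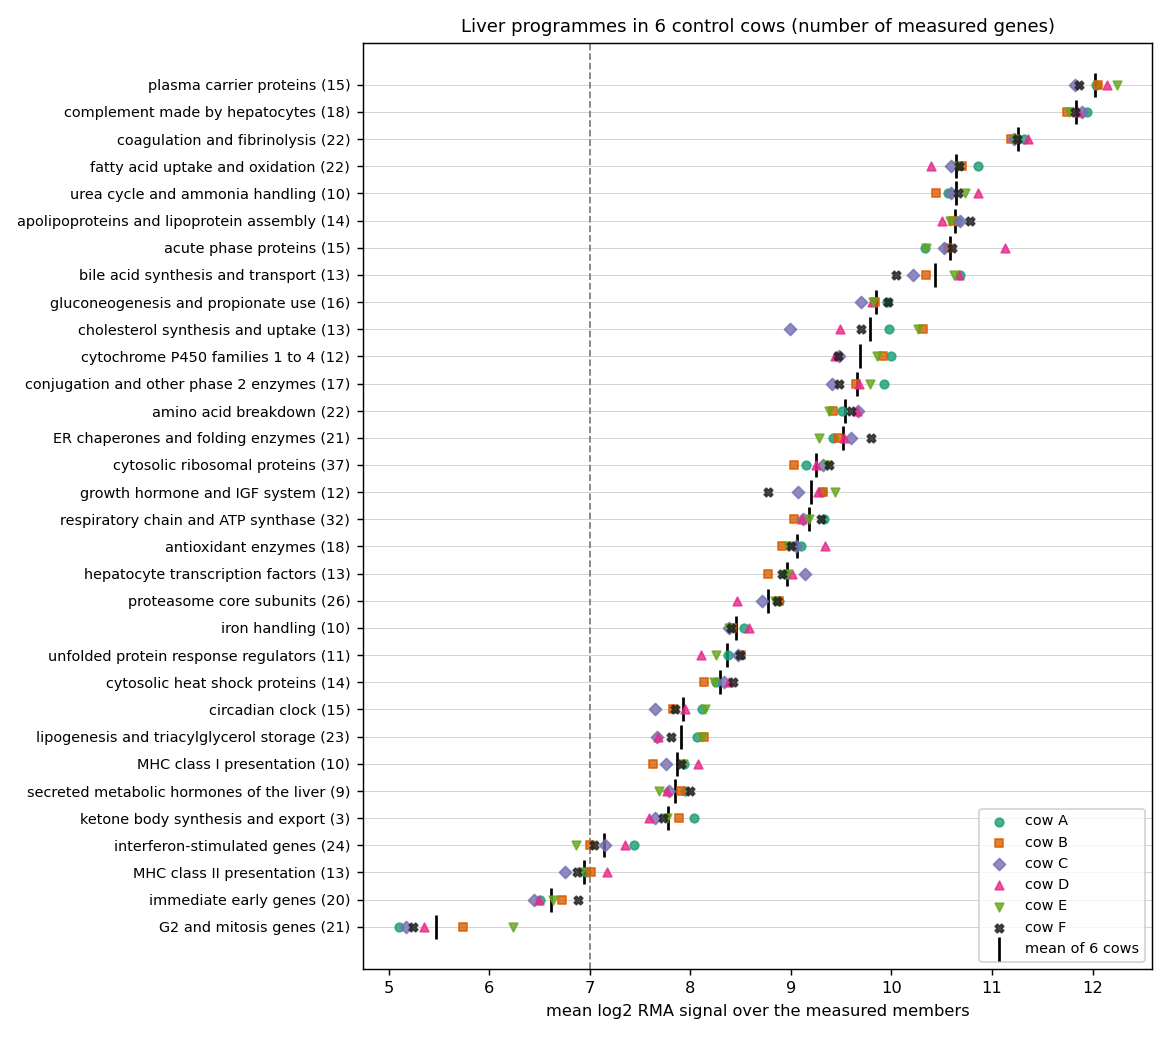
Mean log2 RMA signal of 32 liver programmes (x axis) in each of the 6 control cows (points) with the mean of the cows (vertical bars), ordered by that mean, the number of measured genes being in brackets and the dashed line marking a signal of 7. Plasma carriers, complement and coagulation head the order at 12.03, 11.84 and 11.26, and the points of cholesterol synthesis run between 8.99 in cow C and 10.32 in cow B.

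Lipid and nitrogen metabolism came next. Fatty acid uptake and oxidation had a mean of 10.65 ± 0.15 (22 genes), led by the medium-chain acyl-CoA dehydrogenase ACADM (12.52 ± 0.19), the fatty acid-binding protein FABP1 and the thiolase ACAA2 (11.75 ± 0.10). The urea cycle and ammonia list had a mean of 10.64 ± 0.14 (10 genes), with CPS1, the entry enzyme of the cycle, at 12.89 ± 0.09 and ASS1 at 12.43 ± 0.18. Apolipoproteins and lipoprotein assembly followed at 10.64 ± 0.10 (14 genes), then acute phase proteins at 10.58 ± 0.29 (15 genes), and bile acid synthesis and transport at 10.43 ± 0.27 (13 genes), led by the bile acid uptake carrier SLC10A1 (12.28 ± 0.29). The means of fatty acid oxidation, the urea cycle, apolipoproteins and acute phase proteins differed by less than their SD between cows, so that no order among these 4 holds. Without cow D the SD of the acute phase list was 0.13 and that of the fatty acid list 0.10.

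Gluconeogenesis and propionate use stood ninth at 9.85 ± 0.10 (16 genes). PCK1, which commits oxaloacetate to glucose synthesis, had 12.00 ± 0.30, the glucose-releasing phosphatase G6PC1 had 11.84 ± 0.19, and MMUT, the last enzyme of the propionate route, had 11.29 ± 0.10. Cholesterol synthesis followed at 9.79 ± 0.50 (13 genes) and had the largest spread between cows of all 32 programmes. The order depended on which members were counted, and with expressed members alone gluconeogenesis stood at rank 12 and cholesterol synthesis at rank 14, whereas the cytochromes P450 stood at rank 5, against rank 11 with all members. Ketone body synthesis had 3 measured genes and a mean of 7.77 ± 0.17, and its other listed genes were not analysed here. The lowest 4 programmes were interferon-stimulated genes (7.14 ± 0.22), MHC class II presentation (6.94 ± 0.14), immediate early genes (6.61 ± 0.17), and G2 and mitosis genes (5.47 ± 0.44). In the last list 2 of 21 measured genes were expressed, and the mean of cow E was 6.24, against 5.10 to 5.74 in the other cows. Without cow E the SD of this list was 0.25.

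Most expressed genes varied little between the control cows. The median SD of the 6615 genes was 0.22 on the log2 scale, 10% of them lay below 0.11 and 10% above 0.39. An SD of 0.5 or more was found for 322 genes, which is 4.87% of the expressed genes, and an SD of 1 or more for 45 (0.68%). The genes next to the limit were GPC3, just inside with an SD of 0.50, and SORD, just outside with 0.50. The share with an SD of 0.5 or more ranged between 3.96% and 8.63% over 6 classes of mean signal and was highest for means of 10 to 11. Leaving out cow B, whose array had the narrowest range of signals, gave 344 such genes.

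**Figure D2:**
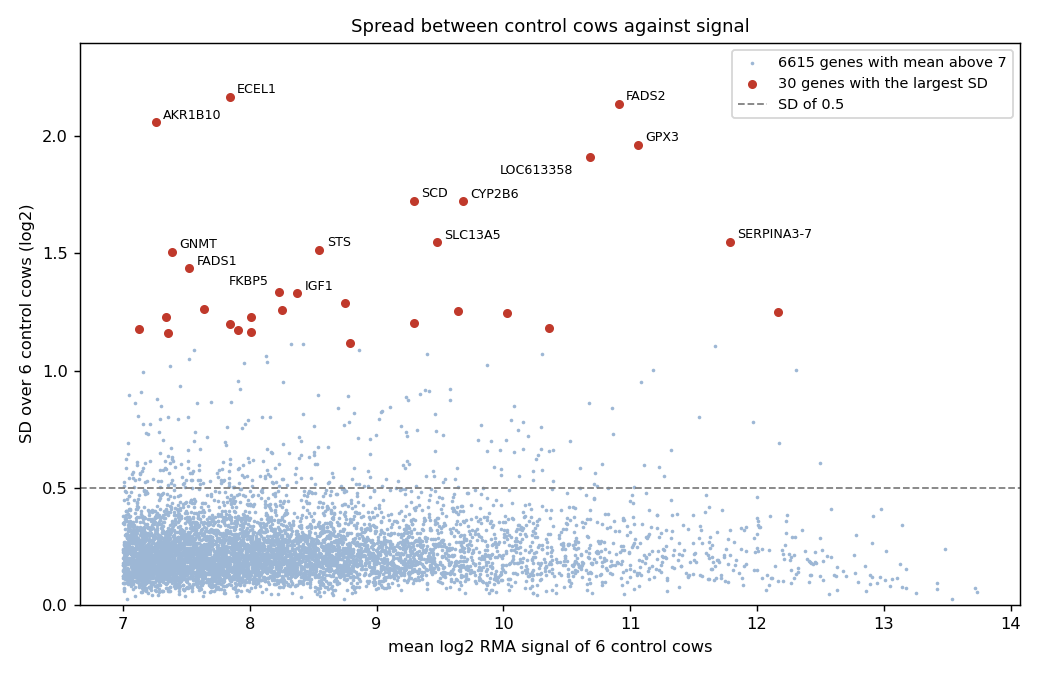
SD over the 6 control cows (y axis, log2) against mean log2 RMA signal (x axis) for the 6615 genes with a mean above 7, the 30 genes with the largest SD in red and an SD of 0.5 dashed. The means of the 30 genes run from 7.13 (HSD3B1) to 12.17 (MT1A), and ECEL1 reaches the highest SD, 2.17.

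The 30 genes with the largest SD ended at INMT (SD 1.12), and CYP2C281 (1.12) came directly after it. They are described by known role, grouped after their values were seen, with signals always given for cows A, B, C, D, E and F, in that order.

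FADS2, FADS1, SCD, MFSD2A and INSIG1 belong to the synthesis and transport of lipids or its control. FADS2, the delta-6 desaturase that starts the synthesis of long polyunsaturated fatty acids, had log2 signals of 12.26, 12.68, 8.73, 10.94, 12.94 and 7.90, an SD of 2.14. Cow E was highest and cow F lowest, 32.9-fold apart, and cow C was second lowest. FADS1, the delta-5 desaturase encoded by the gene next to FADS2, had 7.69, 7.96, 6.03, 7.98, 9.69 and 5.80 (SD 1.44), again with cows C and F lowest. SCD, the delta-9 desaturase that makes oleic acid, had 9.88, 10.93, 8.24, 8.63, 11.30 and 6.79 (SD 1.72), with the same cow highest and the same 2 cows lowest. MFSD2A, a carrier of lysophosphatidylcholine, had 9.30, 7.88, 6.15, 6.74, 8.26 and 8.75 (SD 1.20) and followed another order, with cow A highest and cow F next.

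Of the list of lipogenesis and triacylglycerol storage, 6 of 18 expressed members (33.3%) had an SD of 0.5 or more, against 4.87% of all expressed genes. Beside SCD these were LPIN1, FASN, ELOVL6, PLIN2 and ELOVL5. FASN, the fatty acid synthase, lay close to the limit of expression with a mean of 7.04 and had 7.13, 7.62, 6.20, 6.72, 8.04 and 6.55. LPIN1, a phosphatidate phosphatase, had 9.34, 9.60, 8.31, 8.39, 9.61 and 10.16, so that cow F, which was lowest for SCD, was highest for LPIN1. The lipogenic list therefore did not run in 1 order of cows. In the list of fatty acid uptake and oxidation, 2 of 22 expressed members (9.09%) reached an SD of 0.5, namely FABP1 (12.30, 12.50, 11.38, 11.94, 12.92 and 10.78) and PDK4, the kinase that spares pyruvate (9.96, 9.56, 8.74, 8.62, 9.10 and 10.77). FABP1 was lowest in cow F, and PDK4 was highest in that cow.

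Of the cholesterol synthesis list, 7 of 13 expressed genes (53.8%) had an SD of 0.5 or more, against 4.87% of all expressed genes. The mean of the list was 9.97 in cow A, 10.32 in cow B, 8.99 in cow C, 9.49 in cow D, 10.26 in cow E and 9.70 in cow F. Cow C stood lowest and cows B and E highest. INSIG1, which retains the SREBP activators of this pathway in the endoplasmic reticulum and is itself their target, had 10.63, 11.41, 8.61, 9.20, 10.92 and 11.41 (SD 1.18). Its highest signal was shared by cows B and F. SQLE, which oxidises squalene, had 10.36, 10.76, 8.75, 9.58, 10.82 and 10.07, and DHCR7, which catalyses the last step, had 9.99, 10.80, 8.91, 9.79, 10.52 and 9.39, both lowest in cow C. The listed genes that were not matched to a row with 1 symbol were not analysed here.

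**Figure D3:**
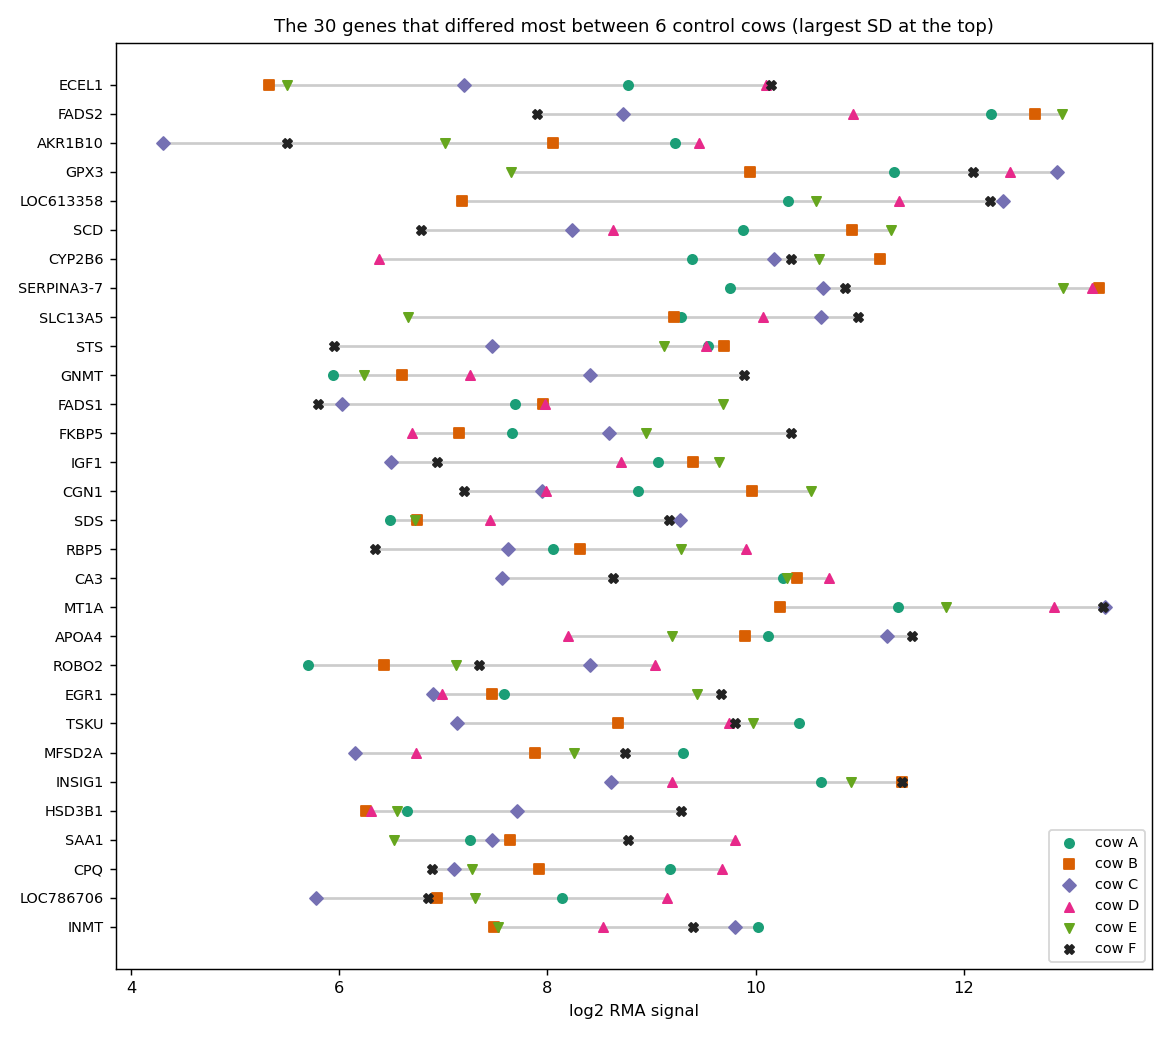
Log2 RMA signal (x axis) of the 30 expressed genes with the largest SD in each of the 6 control cows (points), the grey bars running from the lowest to the highest cow. FADS2, SCD, FADS1 and IGF1 have cows C and F at the low end, whereas MT1A, LOC613358 and SDS have the same 2 cows at the high end.

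In the list of the growth hormone and IGF system, 5 of 10 expressed members (50%) had an SD of 0.5 or more, against 4.87% of all expressed genes. IGF1, the growth factor that the liver releases on growth hormone, had 9.06, 9.40, 6.50, 8.71, 9.65 and 6.94 (SD 1.33). Cows C and F lay below 7 and the other 4 cows above 8.7. GHR, the growth hormone receptor, had 10.59, 10.47, 9.63, 10.68, 10.53 and 9.05 (SD 0.66), and IGFALS, the subunit that keeps IGF-1 in the circulation, had 8.15, 8.47, 7.06, 9.01, 8.90 and 7.37 (SD 0.80). All 3 genes were lowest in cows C and F. IGFBP1, a binding protein that is high in fasting and low under insulin, had 11.45, 12.13, 12.01, 9.48, 10.55 and 11.48 (SD 1.00) and was lowest in cow D. SOCS2, which limits growth hormone signalling, was the fifth, with 7.60, 7.62, 8.24, 8.35, 8.91 and 7.19. In contrast, IGF2 (12.46 ± 0.18) and IGFBP2 (12.00 ± 0.34), the members with the highest signals, stayed below an SD of 0.5.

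A known target of glucocorticoids, enzymes of steroid turnover and a steroid carrier of plasma made up a further group, which was formed after their values were seen. FKBP5, the co-chaperone of the glucocorticoid receptor and one of its classical targets, had 7.66, 7.15, 8.59, 6.70, 8.95 and 10.34 (SD 1.34), with cow F highest. HSD3B1, an enzyme of steroid hormone synthesis, was above 9 in cow F and below 8 in all others (6.65, 6.26, 7.71, 6.31, 6.56 and 9.28), and without cow F its SD of 1.18 became 0.59. With a median of 6.605, HSD3B1 passed the limit of expression only through cow F. STS, the steroid sulfatase, was lowest in cow F (9.54, 9.70, 7.47, 9.52, 9.12 and 5.95, SD 1.52), and without this cow the SD was 0.92. SERPINA6, the corticosteroid-binding globulin of plasma, had 7.08, 8.06, 6.24, 8.59, 8.63 and 6.52 (SD 1.05) and was lowest in cows C and F. Further variable steroid enzymes had other orders of cows. CYP11A1 had 9.04, 8.86, 9.94, 10.36, 7.87 and 9.40 (SD 0.88), highest in cow D and lowest in cow E. HSD17B2 had 7.80, 8.27, 7.51, 7.43, 8.90 and 6.98 (SD 0.68), highest in cow E and lowest in cow F.

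Amino acid breakdown had 4 of 20 expressed members (20.0%) at an SD of 0.5 or more, against 4.87% of all expressed genes. SDS, the serine dehydratase that turns serine into pyruvate for glucose synthesis, had 6.49, 6.75, 9.27, 7.45, 6.73 and 9.17 (SD 1.26), so that cows C and F lay above 9 and the other 4 below 7.5. GNMT, which disposes of excess methyl groups on glycine and was not in that list, had 5.94, 6.60, 8.41, 7.26, 6.24 and 9.89 (SD 1.51) and was also highest in cow F and second highest in cow C. Without cow F the SD of GNMT was 0.98, and with a median of 6.93 this gene passed the limit of expression only through cow F. KMO, an enzyme of tryptophan breakdown, had 10.57, 9.62, 8.96, 10.56, 7.83 and 8.84 (SD 1.07), with cows A and D highest. Pyruvate carboxylase, PC, which feeds oxaloacetate into glucose synthesis, was the single variable gene of 15 expressed members of the gluconeogenic list (6.67%, near the 4.87% of all) and had 10.30, 10.48, 10.88, 9.70, 9.64 and 11.33 (SD 0.66). Cows C and F, which were highest for SDS, were highest for PC as well. PCK1 and G6PC1, in contrast, were lowest in cow C, and their highest and lowest cows were 1.65-fold and 1.43-fold apart.

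Metal binding and antioxidant defence held some of the largest differences. Metallothioneins are small zinc- and copper-binding proteins whose genes respond to metals, glucocorticoids and inflammation. LOC613358, which carries the older name MT1E in the RefSeq gene table, had 10.31, 7.18, 12.38, 11.38, 10.58 and 12.25 (SD 1.91), MT1A had 11.37, 10.23, 13.36, 12.87, 11.83 and 13.34 (SD 1.25) and MT2A had 11.27, 9.82, 12.77, 12.29, 11.32 and 12.56 (SD 1.10). All 3 were highest in cow C, second highest in cow F and lowest in cow B, and without cow B the SD of LOC613358 was 0.94. These genes are close paralogues with short transcripts, and how far their probe sets bind each other's transcripts was not tested.

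GPX3, the secreted selenium-dependent glutathione peroxidase, had 11.33, 9.95, 12.90, 12.44, 7.65 and 12.09 (SD 1.96), with the widest gap between cows of all 30 genes, 38.1-fold. Cow E was lowest, and without it the SD was 1.15. The intracellular peroxidase GPX1 and the mitochondrial dismutase SOD2 were each higher in cow D than in the other cows. GPX1 had 11.76 in cow D, against 9.55 to 10.28 in the others, and SOD2 had 9.79, 9.49, 9.95, 11.59, 10.01 and 9.87. The antioxidant list had 4 of 17 expressed members (23.5%) at an SD of 0.5 or more, against 4.87% of all expressed genes. AKR1B10, an aldo-keto reductase that reduces aldehydes and retinal, had 9.23, 8.05, 4.31, 9.46, 7.02 and 5.50 (SD 2.06). Its mean of 7.26 passed the limit of expression only with both of its highest cows, A and D, although its median was 7.535. AKR1B10 was below 6 in cows C and F. CA3, a carbonic anhydrase of liver, muscle and fat, had 10.26, 10.40, 7.56, 10.71, 10.30 and 8.63 (SD 1.26) with the same 2 cows lowest, and without cow C its SD was 0.82.

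The acute phase programme had 4 of 13 expressed members (30.8%) at an SD of 0.5 or more, against 4.87% of all expressed genes. Its mean was 11.13 in cow D, against 10.34 to 10.60 in the other cows. HP, haptoglobin, which binds free haemoglobin and is the main acute phase marker in cattle, had 12.38, 11.52, 12.93, 13.19, 10.70 and 13.12 (SD 1.00). SAA3 had 9.01, 8.94, 8.97, 11.19, 9.17 and 10.20 (SD 0.92) and SAA1, which was not in that list, had 7.26, 7.64, 7.47, 9.80, 6.53 and 8.77 (SD 1.18). These serum amyloid A genes were highest in cow D and second highest in cow F. A2M, a broad protease inhibitor of plasma, was likewise highest in cow D (11.01, 11.09, 11.49, 13.14, 11.39 and 11.14). The neutrophil marker list was also highest in cow D, with a mean of 6.16, against 5.12 to 5.61 in the other cows, and 1 of its 12 markers was expressed. The expressed marker was FCGR3A, with a mean of 7.77 and its highest signal, 8.37, in cow D. S100A12, a calcium-binding protein of neutrophils, was not expressed (mean 6.45) and had 5.54, 5.11, 7.47, 8.42, 5.58 and 6.56. The part of such cells in the acute phase signals was not tested.

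SERPINA3-7, 1 of several bovine serpins related to antichymotrypsin, had another order of cows than haptoglobin. Its signals were 9.75, 13.30, 10.65, 13.23, 12.95 and 10.86 (SD 1.55), with cows B, D and E near 13 and the others below 11. SERPINA3-3, its relative with a mean of 13.14, had an SD of 0.34. CGN1, conglutinin, a collectin of cattle that binds sugars on complement-coated particles, had 8.87, 9.97, 7.95, 7.99, 10.53 and 7.20 (SD 1.29), highest in cow E and lowest in cow F. Probe sets of the serpin and serum amyloid A families may share sequence, and for these genes the split of signal between relatives is uncertain.

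Enzymes for drugs and other foreign compounds held further variable genes. Of the cytochrome P450 families 1 to 4, 3 of 9 expressed genes (33.3%) had an SD of 0.5 or more, and of conjugating and other phase 2 enzymes 6 of 15 (40.0%), against 4.87% of all expressed genes. CYP2B6, which in other mammals is induced through the receptor CAR, had 9.39, 11.20, 10.18, 6.38, 10.61 and 10.34 (SD 1.72). The spread rested on cow D, without which the SD was 0.66. UGT2A1, a glucuronosyltransferase, had 9.39, 8.42, 8.79, 9.32, 9.62 and 7.41 and was lowest in cow F. NNMT, which methylates nicotinamide, had 9.14, 7.81, 9.98, 9.21, 8.61 and 9.22, and its relative INMT had 10.02, 7.49, 9.80, 8.53, 7.53 and 9.40 (SD 1.12), both lowest in cow B. In contrast CYP1A2 (12.29 ± 0.21) and CYP2E1 (13.01 ± 0.23) had an SD close to the median of 0.22 over all expressed genes.

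Among carriers and secreted factors, SLC13A5, which takes up citrate from blood, had 9.28, 9.22, 10.63, 10.07, 6.66 and 10.98 (SD 1.55). Cow E was lowest, and without it the SD was 0.79. APOA4, an apolipoprotein of triacylglycerol-rich particles that is known in mice to increase with liver fat, had 10.12, 9.90, 11.26, 8.20, 9.20 and 11.50 (SD 1.24), highest in cows C and F. APOA1, the main protein of high-density lipoprotein, had 8.85, 8.68, 9.32, 8.07, 8.43 and 9.50 (SD 0.54) with the same 2 cows highest and the same cow, D, lowest. RBP5, a cellular retinol-binding protein, had 8.05, 8.31, 7.62, 9.91, 9.28 and 6.34 (SD 1.26). TSKU, a small secreted proteoglycan made by liver, was low in cow C (10.42, 8.68, 7.13, 9.74, 9.98 and 9.80), and its SD of 1.20 became 0.64 without that cow.

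ECEL1 had the largest SD of all expressed genes, 2.17. It encodes a metalloprotease related to the endothelin-converting enzymes that is known mainly from neurons. Its signals were 8.77, 5.33, 7.20, 10.10, 5.50 and 10.15, near 10 in cows D and F and below 6 in cows B and E. ROBO2, a receptor of slit guidance proteins, had 5.70, 6.43, 8.41, 9.03, 7.12 and 7.34. Its mean was 7.34, and without cow D, its highest, the mean was no longer above the limit of expression. CPQ, a secreted carboxypeptidase, had 9.18, 7.92, 7.10, 9.68, 7.28 and 6.89. LOC786706, for which no gene name was given in the annotation used, had 8.14, 6.94, 5.78, 9.15, 7.30 and 6.85. EGR1, an immediate early transcription factor, had 7.58, 7.47, 6.90, 6.99, 9.44 and 9.67 (SD 1.23), with cows E and F above 9 and the other 4 below 8.

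The circadian clock list had the highest share of variable members among the programmes, 6 of 11 expressed genes (54.5%), against 4.87% of all. Cholesterol synthesis (7 of 13, 53.8%) and the growth hormone and IGF system (5 of 10, 50%) came close, and lists this short give little weight to the order. DBP, a clock output factor, had 10.12, 8.90, 8.99, 10.85, 9.99 and 8.61, BHLHE40 had 9.03, 9.28, 7.25, 8.72, 9.60 and 8.30, and PER3, a core repressor, had 8.05, 7.03, 6.60, 8.48, 8.14 and 7.66. PER3 and BHLHE40 were lowest in cow C, and DBP in cow F. ARNTL, the activator of the clock, is known to peak at the opposite phase to the period genes in mouse liver. It had 6.31, 7.06, 8.10, 6.16, 6.63 and 7.11, highest in cow C and lowest in cow D, the cow with the highest PER3. PER1, another variable period gene, had 8.51, 8.36, 7.21, 8.41, 8.93 and 8.90. PER1 was lowest in cow C but highest in cow E, and next in cow F, the cow with the second highest ARNTL. The remaining variable members had other orders, with NFIL3 highest in cow B and lowest in cow D, and BHLHE41 highest in cow E and lowest in cow B. With a mean of 6.90 ARNTL was not among the expressed genes. The time of day of each biopsy is not given in the sources used here, and its part was not tested.

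Bile acid genes held 2 variable members of 13 (15.4%), against 4.87% of all expressed genes, and a list this short gives little weight to the count. CYP7A1, the rate-limiting enzyme of bile acid synthesis, had 11.56, 9.96, 11.61, 11.88, 11.71 and 9.77 (SD 0.95), with cows B and F below 10 and the other 4 cows above 11.5. ABCB11, the pump that exports bile salts, had 10.87, 9.79, 9.32, 10.32, 10.65 and 9.17 (SD 0.70) and was lowest in cows C and F. Among immune genes, MX1, an interferon-induced antiviral GTPase, had 8.32, 7.72, 7.30, 8.61, 6.62 and 8.34, and a class I histocompatibility transcript listed as BOLA had 8.53, 8.40, 9.60, 9.18, 10.81 and 9.98 (SD 0.91). BOLA genes are close relatives, and the split of signal between them is uncertain.

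No expressed member reached an SD of 0.5 in 7 programmes, namely complement (18 genes), cytosolic ribosomal proteins (30), respiratory chain and ATP synthase (31), proteasome core subunits (26), regulators of the unfolded protein response (8), iron handling (7) and ketone body synthesis and export (2). With 4.87% of all expressed genes as background, lists this short hold few such genes, and nothing particular to them was read from a count of 0. Of 528 microRNA precursors, 50 were expressed. MIR122, the precursor of the main microRNA of hepatocytes, which was named after its values were seen, had 8.50, 7.08, 7.19, 8.47, 8.40 and 6.52 (SD 0.87).

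The same cows stood at the extremes of many variable genes. Among the 322 genes with an SD of 0.5 or more, cow F was lowest for 104 (32.3%), against 21.3% of all 6615 expressed genes, and cow D was highest for 97 (30.1%), against 993 of all 6615. Cow B was lowest for 18.6% of the 322, against 29.4% of all, and cow C was highest for 10.9%, against 24.2%. The cow most often lowest among the variable genes was thus not the cow most often lowest among all expressed genes, and the same held for the highest cow.

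**Figure D4:**
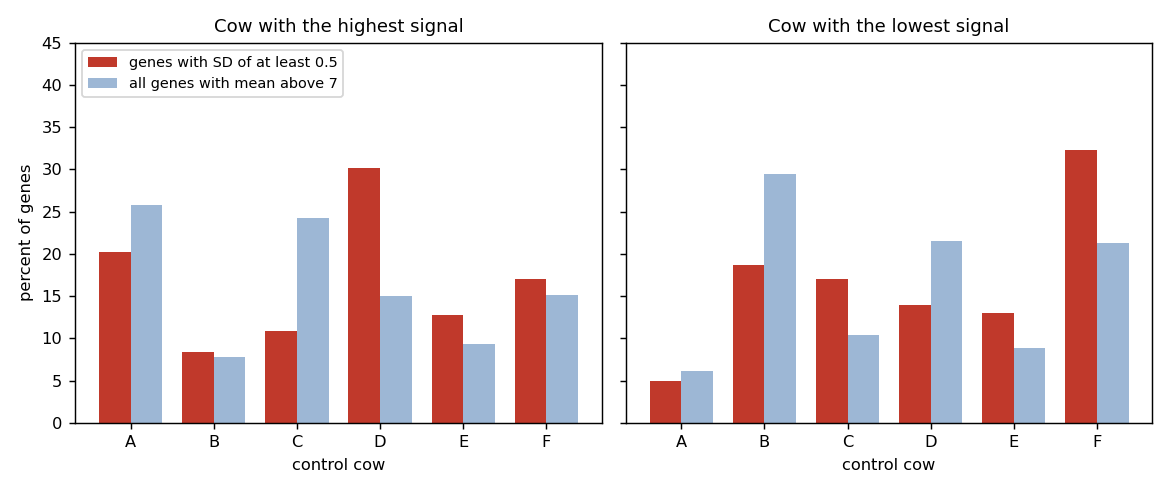
Percent of genes (y axis) for which each control cow (x axis) had the highest signal (left) or the lowest signal (right), for the 322 genes with an SD of at least 0.5 (red) and for all 6615 expressed genes (blue). Among variable genes cow D is most often highest (30.1%) and cow F most often lowest (32.3%).

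A shared position of cows C and F, seen first in the genes above, was then counted. These 2 cows had the 2 lowest signals for 87 of the 322 variable genes (27.0%), against 591 of the 6615 expressed genes (8.93%). As the 2 highest they were found for 39 of the 322 (12.1%), against 12.4% of all. Among the 30 most variable genes they were the 2 lowest for 11 (36.7%) and the 2 highest for 7 (23.3%). The 11 were FADS2, AKR1B10, SCD, STS, FADS1, IGF1, CGN1, RBP5, CA3, CPQ and LOC786706. The other 76 included GHR, IGFALS, FABP1, FASN, ELOVL6, DHCR7, NSDHL, SERPINA6 and the deiodinase DIO1, which makes active thyroid hormone (11.30, 10.76, 9.24, 9.99, 10.20 and 9.45). Cows A and D had the 2 highest signals for 58 of the 322 (18.0%), against 12.5% of all. Of the 15 pairs of cows, C and F were the commonest low pair among the 322, and A and D the commonest high pair. Cows B and F were the 2 lowest for 49 of the 322 (15.2%), against 18.9% of all expressed genes, where they were the commonest low pair. These counts describe 6 animals, and no other sample was used to test them.

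Whether genes of a known relation also varied together was tested for 17 pairs, of which 14 could be measured. An exact permutation test over the 720 pairings of 6 cows was used. The pairs were chosen with earlier results of these data known, so that the p-values describe these cows and are not those of tests planned beforehand. FASN and SCD had r = 0.89 (p = 0.0181) and rho = 0.94 (p = 0.0167), PCK1 and G6PC1 had r = 0.79 (p = 0.0375) and rho = 0.66 (p = 0.175), and GHR and IGFALS had r = 0.85 (p = 0.0431) and rho = 0.77 (p = 0.103), by the same exact test, two-sided. After Benjamini-Hochberg adjustment over the 14 pairs none of them passed, with an adjusted exact p = 0.183 for all 3 values of r. FASN and SCD had r = 0.95 without the 2 cows farthest from the median of FASN, whereas PCK1 and G6PC1 had r = 0.38 and GHR and IGFALS r = 0.35 without cows C and F, so that the last 2 relations rest on those cows.

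GHR and IGF1 had r = 0.87 (exact p = 0.0653) and rho = 0.43 (exact p = 0.419). Without cows C and F the value was -0.86, so that the positive correlation rested on these 2 cows. HP and SAA3 had r = 0.58 (exact p = 0.207), and ALB, whose synthesis falls in an acute phase response, and HP had r = -0.64 (exact p = 0.147). The adjusted exact p was 0.290 for HP and SAA3 and 0.258 for ALB and HP.

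**Figure D5:**
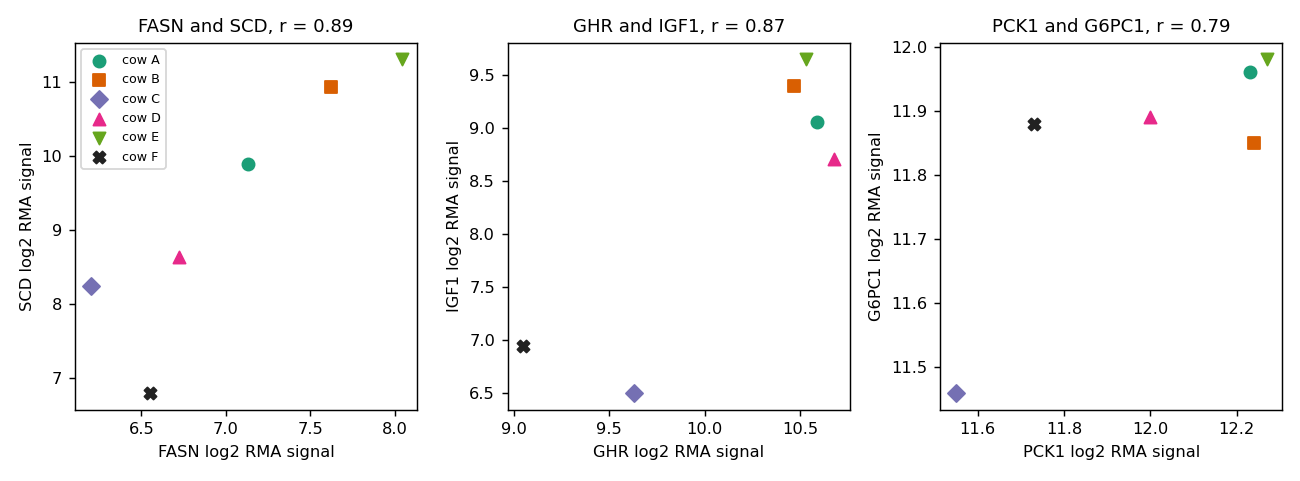
Log2 RMA signals of 3 gene pairs in the 6 control cows, with FASN and SCD on the left, GHR and IGF1 in the middle, and PCK1 and G6PC1 on the right. The points of FASN and SCD lie along a line (r = 0.89), whereas in the middle panel cows C and F lie apart from the other 4.

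Some variable genes were neighbours on the chromosome in the RefSeq gene table of the assembly ARS-UCD2.0. Of the 322 genes, 315 could be placed, and 15 pairs, with 28 genes, lay directly next to each other. Counted from each variable gene in turn, 30 of 256 expressed neighbours (11.7%) were variable themselves, against 5.2% of the expressed neighbours of all expressed genes, and no test of this was made. The pairs included FADS1 and FADS2, LOC613358 and MT2A, the cytochromes CYP2C89 and CYP2C281, the sodium-phosphate carriers SLC17A2 and SLC17A3, LOC327709 and the glutathione transferase GSTM2, and FCMR and PIGR, both immunoglobulin receptors. In the desaturase, P450, carrier and metallothionein pairs the neighbours are members of 1 family, where shared probe sequence was not tested. GLCE, PAQR5 and KIF23 formed a run of 3, in which KIF23, a kinesin of cell division, had 7.75, 7.72, 8.97, 9.65, 7.76 and 9.37 and did not follow the G2 and mitosis list, whose highest cow was E.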

How the data were processed

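Liver RNA of each control cow was hybridised to an Affymetrix bovine gene array, 1 per animal. The deposited log2 signals were made by the authors with RMA in the Affymetrix Expression Console, over all 12 arrays, and were rounded to 2 decimals. The sources used here give neither software versions nor a genome build. Because RMA brings the probe signals of all arrays to 1 distribution before transcripts are summarised, a shift of all genes in a cow would largely be lost. The 6 columns of cows that received the extract were not used. Arrays give no read depth, and their number, 6, limits the precision. The labels number the cows, and letters A to F follow the order of those numbers.

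Symbols came from the platform annotation (688 transcripts with several symbols and 7628 with none were left out). Of the 18457 transcripts with 1 symbol, 17996 matched the RefSeq table of ARS-UCD2.0 by gene ID. For each gene the transcript with the highest mean was taken. Means, SDs and exact permutation tests were computed with Python 3.11.15, numpy 2.4.6, pandas 2.3.3 and scipy 1.17.1, figures with matplotlib 3.10.9, and cyclic loess with limma 3.58.1 in R 4.3.3. The SDs and the permutation test were tested on simulated data. Named were the 20 genes with the highest mean, the 30 with the largest SD and 5 on either side of rank 30, in each programme the 3 with the highest mean and the 3 with the largest SD, the genes of the tested pairs, and 2 markers per cell type. Further variable genes were named after their values were seen. The cows, lists and pairs were chosen with earlier results of these data known. Alternatives were array centring, cyclic loess, other limits of signal and SD, other rankings, and leaving out each cow.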

Additional observations from a re-analysis of the deposited data

Results flagged for a closer look

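Of 73 values tested for a single cow far from the other 5 (Dixon's test, which flags about 1 in 20 by chance), 1 was found. At this rate more than 1 of the 73 values would be flagged by chance alone. The 1 flag is therefore no more than chance would give, and nothing was concluded from it. The tested values also included the most variable genes, which had been chosen for their spread in these same cows. The mean of the acute phase proteins was 11.13 in cow D, with 10.60 as the next highest value, and the gap was 0.67 of the whole range, above the critical value of 0.625. In the same cow the neutrophil markers averaged 6.16, against 5.12 to 5.61 in the other cows, and their part in this value was not tested.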

How the results depend on the processing

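The number of genes with an SD of 0.5 or more, 322, was 364 after centring the arrays, 312 after cyclic loess, 437 among genes with a mean above 6 and 183 among those with a mean above 8, and 45 at an SD of 1 or more. Without 1 cow it was 279 (without cow F) to 390 (without cow E), the number of expressed genes was 6578 to 6675, 23 to 26 of the 30 most variable genes were found again, and all of the 10 highest programmes stayed. Ranking by median absolute deviation kept 18 of the 30 genes. With the median over members 9 of those 10 stayed, and with expressed members alone 8. The 32 programme means stayed within their SD between cows after centring, after cyclic loess and without any 1 cow, but 21 moved by more with the median over members, 22 with expressed members alone and 2 with the mean of all transcripts of a gene. Acute phase proteins, at 10.58, had 11.79 with the median and 11.33 with expressed members. The 30 SDs stayed at 0.5 or more after centring, after cyclic loess and without any 1 cow, where the limit of expression was not applied again. The SD between cows became over 1.5 times smaller without 1 cow in 6 programmes, namely without cow D in acute phase proteins (0.13), fatty acid oxidation (0.10), antioxidant enzymes (0.07) and proteasome subunits (0.07), without cow F in the growth hormone and IGF system (0.13), and without cow E in G2 and mitosis genes (0.25). Of the 14 gene pairs, 3 had an unadjusted p below 0.05 with Pearson's r, 1 with Spearman's rho and 0 without the 2 farthest cows, where the exact test over 4 cows has little reach. Without those cows r turned to -0.86 for GHR and IGF1, 0.50 for IGF1 and IGFBP1, -0.57 for FGF21 and CPT1A, -0.53 for PER1 and DBP, -0.54 for FOS and EGR1 and -0.0755 for CDK1 and KIF11, and the cause was not tested. Cows C and F were the 2 lowest for 87 of 364 variable genes after centring, 98 of 312 after cyclic loess and 14 of 45 at an SD of 1 or more, alternatives chosen after seeing the data. No paired analysis was possible because 1 group was analysed and no cow was in both groups.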
